A study of Mus musculus with 2 samples.

Results

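The 8 genes described here act in regulated secretion. They are Snap25, Syt1, Syp, Vamp2, Syn1 and Syn2 of synaptic vesicles and their release, and Chgb and Scg2 of the secretory granule. These were taken by symbol from a fixed list, 8 of the 40276 features counted. The rule uses no measured value, but the members were chosen with earlier results of these data known. The data came from spatial total RNA sequencing, in which random primers copy RNA in place on an array of barcoded spots. 1 section of normal mouse brain and 1 of normal mouse heart were profiled, each 5 µm thick and cut from formalin-fixed, paraffin-embedded tissue whose RNA is fragmented and crosslinked. The labels give no strain, sex, age, genotype or drug for either animal. Both samples carry the same treatment entry, which says that reverse transcription used a primer lacking the second cell barcode. Each tissue is 1 library (n = 1), so nothing could be checked against replicates or tested. The 95% intervals cover counting error only and assume that each count is a separate molecule.

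Neurons store fast transmitters in small synaptic vesicles and peptides in larger dense-core granules. Both fuse with the cell membrane through SNARE proteins when calcium rises, with synaptotagmin as the sensor at the vesicle. Synapsins tether vesicles in reserve behind the active zone, and granins are acidic proteins that help to pack peptide hormones into granules.

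RefSeq promoter sequence (GRCm38.p6, an older build than the mm39 of the count files) was found for 6 of the 8 genes, in 8 windows of 250 bases before to 50 bases after a transcription start. The 3 genes below are shown because their windows held a searched motif. Each line gives the 250 bases before the start, 5′ to 3′ on the gene's strand. Capitals mark the cAMP response element TGACGTCA, the site of the factor CREB, and the left part TTCAGCACC of RE1, the element bound by REST, a repressor of neuronal genes outside neurons.
Syn1 (chrX:20920919-20921168, minus strand): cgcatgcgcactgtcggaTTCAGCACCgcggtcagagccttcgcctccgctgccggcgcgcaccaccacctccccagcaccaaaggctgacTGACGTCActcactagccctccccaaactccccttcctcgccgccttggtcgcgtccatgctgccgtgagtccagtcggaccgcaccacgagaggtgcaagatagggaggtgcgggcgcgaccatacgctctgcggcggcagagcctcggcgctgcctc
Chgb (chr2:132781392-132781641, plus strand): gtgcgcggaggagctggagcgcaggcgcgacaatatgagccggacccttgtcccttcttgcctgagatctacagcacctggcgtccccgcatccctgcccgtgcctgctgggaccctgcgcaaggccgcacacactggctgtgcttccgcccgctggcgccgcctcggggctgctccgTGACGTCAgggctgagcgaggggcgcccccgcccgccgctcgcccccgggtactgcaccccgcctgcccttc
Scg2 (chr1:79440027-79440276, minus strand): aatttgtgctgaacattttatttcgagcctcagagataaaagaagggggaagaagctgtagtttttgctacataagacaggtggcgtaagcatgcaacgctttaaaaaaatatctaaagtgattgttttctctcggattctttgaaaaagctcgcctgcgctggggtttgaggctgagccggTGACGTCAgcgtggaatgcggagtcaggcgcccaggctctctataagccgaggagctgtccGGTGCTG

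Both granin windows held TGACGTCA at nearly the same distance from the start, 72 bases upstream in Chgb and 68 in Scg2. In Syn1 it began 159 bases upstream. This motif was in 1.79% of all 32851 promoter windows of the same length. The RE1 left part began 232 bases upstream in Syn1. In Scg2 it lay on the opposite strand, from 7 bases before the start to 2 bases past it, so the printed stretch ends with its first 7 bases. That left part was in 0.371% of all windows. The right part GGACAGCGC and the TATA box TATAAA, searched on both strands like the others, matched no window of the 6 genes, against 0.405% and 13.6% of all windows. The motifs do not overlap in these windows. A match describes letters only, and binding was not measured.

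The sections matched their labels by marker genes. All 10 pan-neuronal markers were at least 4-fold higher in brain (median log2 ratio 4.80) and all 6 cardiomyocyte markers at least 4-fold higher in heart (their median was -9.91). Spots with at least 500 counts and 200 features numbered 4080 in brain (37143546 counts, median 5981 a spot) and 3726 in heart (44613867 counts, median 9049.5). The barcode list is common to both sections, so all 4992 barcodes are shared, and spots were grouped by expression and not by position. Nuclear ribosomal RNA took 33.0% of the brain counts and 51.4% of the heart counts, so ratios are also given over counts outside ribosomal, mitochondrial and small RNA.

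All 8 genes were higher in the brain section, by 13.7-fold to 194-fold in CPM, the counts scaled to the section's total. Each passed a rule of size, a 4-fold ratio or more with 20 CPM or more in the higher section, which 17.2% of the 6345 features tested passed in brain and 5.41% passed in heart. Their median log2 ratio was 4.35, beside 0.71 over all features tested. Outside ribosomal, mitochondrial and small RNA all 8 passed again, against 8.42% of features on that scale, with a median of 3.74 beside -0.17. In a section, fewer cells of a type and less RNA per cell cannot be told apart.

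**Figure D1:**
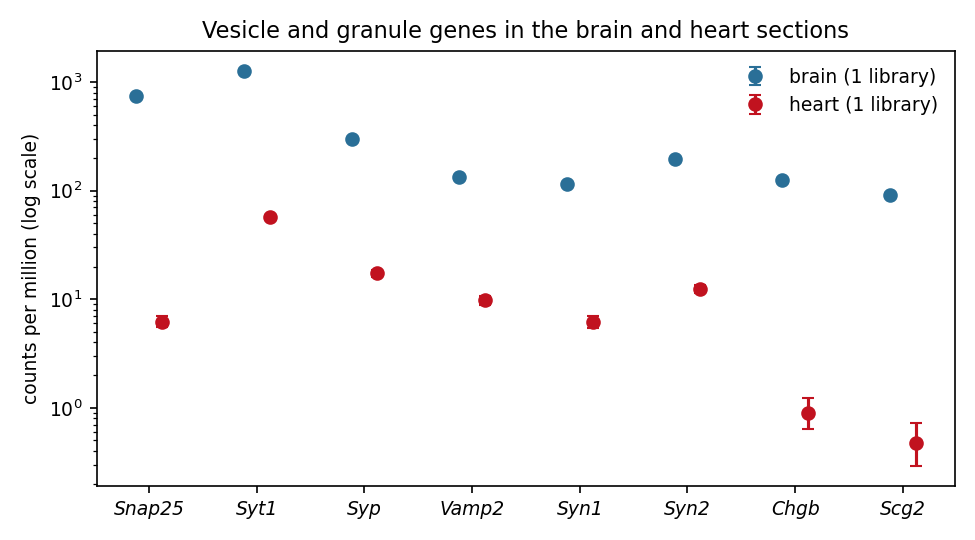
Level of the 8 genes in each section in CPM, on a log axis; points are sums over the spots of 1 library and bars the 95% counting intervals. Every brain point lies above its heart point, and the gap is widest for Snap25, Chgb and Scg2.

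The SNARE genes had ratios of brain over heart that lay far apart. Snap25 (ENSMUSG00000027273.14) encodes the SNARE of the target membrane that contributes 2 helices to the fusion complex. It had 27959 counts in brain and 278 in heart, or 753 and 6.23 CPM, a ratio of 121-fold (107 to 136). Vamp2 (ENSMUSG00000020894.17), the vesicle SNARE also called synaptobrevin, had 4961 and 436 counts, or 133.6 and 9.77 CPM. Its ratio of 13.7-fold (12.4 to 15.1) was the smallest of the 8.

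Syt1 (ENSMUSG00000035864.15), the calcium sensor of fast release, was the most counted member in both sections. It had 47096 counts in brain and 2535 in heart, or 1268 and 56.8 CPM, a ratio of 22.3-fold (21.4 to 23.2). Syp (ENSMUSG00000031144.16), synaptophysin, an abundant protein of the vesicle membrane that binds synaptobrevin, had 11157 and 771 counts. Its levels of 300.4 and 17.3 CPM gave 17.4-fold (16.2 to 18.7).

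The synapsin genes had ratios close to each other before any background was taken off. Syn1 (ENSMUSG00000037217.16) had 4277 counts in brain and 275 in heart, or 115 and 6.16 CPM, 18.7-fold (16.5 to 21.2). Syn2 (ENSMUSG00000009394.14) had 7221 and 560, or 194 and 12.6 CPM, 15.5-fold (14.2 to 16.9). Both loci hold a tissue inhibitor of metalloproteinases on the opposite strand, Timp1 inside Syn1 and Timp4 inside Syn2, in the annotation used (GENCODE M21). Timp1 had 8 counts in brain and 40 in heart. Timp4 had 328 and 710 (8.83 and 15.9 CPM). Araf overlaps Syn1 on the other strand with 1854 and 934 counts, and Gm14703 overlaps Syp with 211 and 77. Whether strand was used in counting is not given in the sources used here, so reads of such partners cannot be told apart from those of the members.

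The granin genes were nearly absent from the heart section. Chgb (ENSMUSG00000027350.9), chromogranin B, had 4670 counts in brain and 40 in heart, or 126 and 0.897 CPM, a ratio of 140.2-fold (103 to 197). Scg2 (ENSMUSG00000050711.8), secretogranin II, had 3389 and 21 counts, or 91.2 and 0.471 CPM. Its ratio was 194-fold (127 to 314), an interval that overlaps those of Chgb and Snap25, so the order of these 3 is not set. With each spot weighted equally the log2 ratio of Chgb was 5.71 in place of 7.11, and that of Scg2 was 7.92 in place of 7.56.

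Per kb of annotated exon the order within brain was Syt1 with 152 CPM per kb, Snap25 111, Syp 57.6, Chgb 45.9, Scg2 36.3, Vamp2 35.1, Syn1 34.9 and Syn2 27.7. Syn2, with more CPM than Vamp2, Syn1, Chgb and Scg2, was last by exon length. Among 21771 protein-coding features ranked by CPM, Syt1 stood at 25, Snap25 at 68 and Syp at 275, and the lowest member, Scg2, at 1325. Random primers also copy introns, and whether intron reads were counted is not given in the sources used here, so counts were set against gene span as well.

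A measure of background came from 1419 olfactory and vomeronasal receptor genes, whose RNA is normally found in sensory neurons of the nose. They held 2.49 counts per kb of gene span in brain and 3.86 in heart. In heart 6 of the 8 members lay under 2 times that density. So did 9 of 10 pan-neuronal genes, 1 of 11 paralogs of wider expression and 0 of 6 cardiomyocyte markers. The share over all features is not given here. Snap25 stood at 1.04 times, Syt1 at 1.28, Syn1 at 1.18, Syn2 at 0.987, Chgb at 0.751 and Scg2 at 0.998 times. The middle 50% of receptor genes had 2.71 to 4.32 counts per kb in heart, and these 6 genes had 2.90 to 4.94. Syt1, the most counted member in heart, spans 513 kb. The remaining pair stood well above, Syp at 13.5 times (52.1 counts per kb) and Vamp2 at 29.0 times (112 counts per kb). In brain all 8 exceeded the receptor density, from 19.7 times for Syn2 to 512 times for Vamp2. The heart level in the ratios of those 6 genes is therefore near the density of receptor genes, and what share of it is the genes' own RNA was not tested. Taking off the receptor density per kb of span left Vamp2 at a log2 ratio of 3.82 and Syp at 4.23, close to 3.77 and 4.12 before. Snap25 moved from 6.91 to 11.45, Syt1 from 4.48 to 6.63 and Syn1 from 4.22 to 6.90. For Snap25 only 11.9 heart counts were left after 266 were taken off, so its value rests on a small remainder and is not an estimate. Syn2, Chgb and Scg2 had no heart counts left and, against a floor of 3 counts over the section, moved from 3.95 to 11.42, from 7.11 to 10.86 and from 7.56 to 10.40. The order of the members by ratio thus depends on the background.

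**Figure D2:**
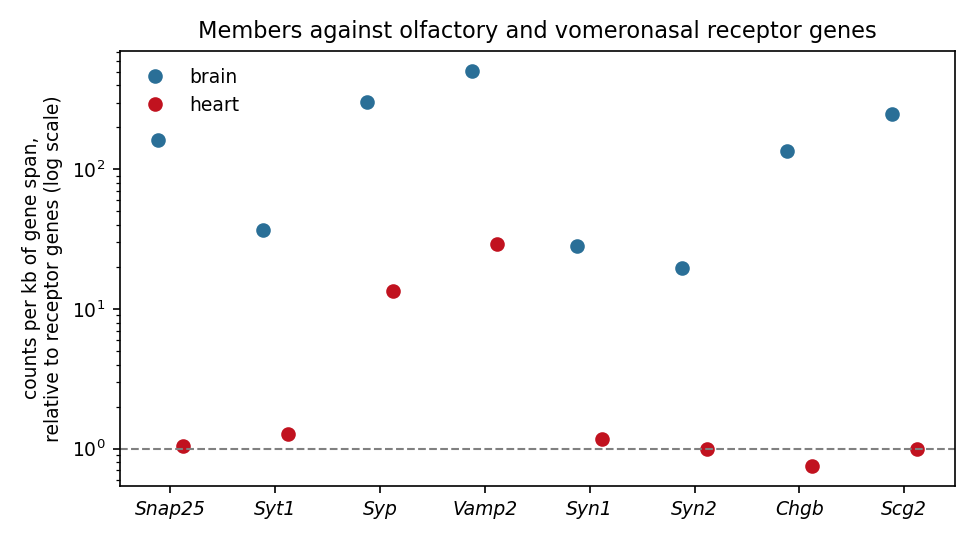
Counts per kb of gene span of the 8 genes, divided by that of 1419 receptor genes in the same section, on a log axis; the dashed line marks the receptor density. In heart 6 genes lie between 0.751 and 1.28 times it, and Syp and Vamp2 at 13.5 and 29.0 times.

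Across 5 groups of heart spots Syt1 was highest in region 3, led by the globin genes Hba-a1, Hbb-bs and Hbb-bt, with 133 CPM (119 to 148), against 31.9 to 69.6 in the others. Snap25, Syn1 and Syn2 were 2.78-fold, 2.42-fold and 2.45-fold above the rest there, Syp 1.63-fold (1.26 to 2.09) and Vamp2 0.693-fold (0.407 to 1.11). Region 3 also had the lowest sum of cardiomyocyte markers, and its pan-neuronal markers came to 248 CPM against 59.6 to 123 in the other 4 regions. In heart 9 of the 10 pan-neuronal genes lay under 2 times the receptor density. Myelin, astrocyte and microglia markers were highest in region 3 too, with 76.25, 65.5 and 101 CPM. So were autonomic neuron (29.5 CPM) and Schwann cell markers (31.4 CPM). Excitatory, inhibitory, choroid plexus, cortex, striatum and hypothalamus markers were also highest there. In heart all 7 autonomic genes with counts and 3 of 4 Schwann genes lay under 2 times the receptor density. Endothelial, fibroblast, hippocampus and thalamus markers were not highest there. What part the cells of these lists had in the member levels was not tested. Vamp2 was highest in region 4 (23.0 CPM, led by Dnah7c), whose spots are shallow, with a median of 906 counts.

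Spots were thinned to 2800 counts of every kind to compare detection. Because ribosomal RNA takes more of the heart counts, a thinned heart spot holds fewer counts of other RNA. In 3060 brain spots Syt1 had a count in 90.9% (exact binomial interval 89.9 to 91.9), Snap25 in 80.2%, Syp in 51.8%, Syn2 in 34.3%, Vamp2 in 29.8%, Syn1 in 24.8%, Chgb in 21.5% and Scg2 in 20.4%. The same shares in 2939 heart spots were 14.2% for Syt1, 1.46% for Snap25, 4.93% for Syp, 2.96% for Syn2, 3.03% for Vamp2, 1.84% for Syn1, 0.136% for Chgb and 0.0681% for Scg2. In heart 6 of the genes lay under 2 times the receptor density, and Syp and Vamp2 lay well above it. What share of the heart detection of those 6 genes is background was not tested. Thinned instead to 1000 counts outside ribosomal RNA, the shares ran from 12.5% (Scg2) to 79.3% (Syt1) in 3475 brain spots and from 0.0333% to 13.0% for the same genes in 3003 heart spots. With thinning to 2800 counts, at least 1 of the 8 was counted in 98.6% of brain spots and 25.7% of heart spots. Too shallow for those 2800 counts were 1020 brain and 787 heart spots. Without thinning the shares ran from 35.7% (Scg2) to 88.6% (Syt1) in brain and from 0.564% to 37.4% for the same genes in heart. A thinned brain spot held a median of 8 member counts (quartiles 5 and 11, highest 24). No spot of the heart held more than 2 counts of Chgb or 1 of Scg2 before thinning, whereas Syt1 reached 11 in a spot.

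**Figure D3:**
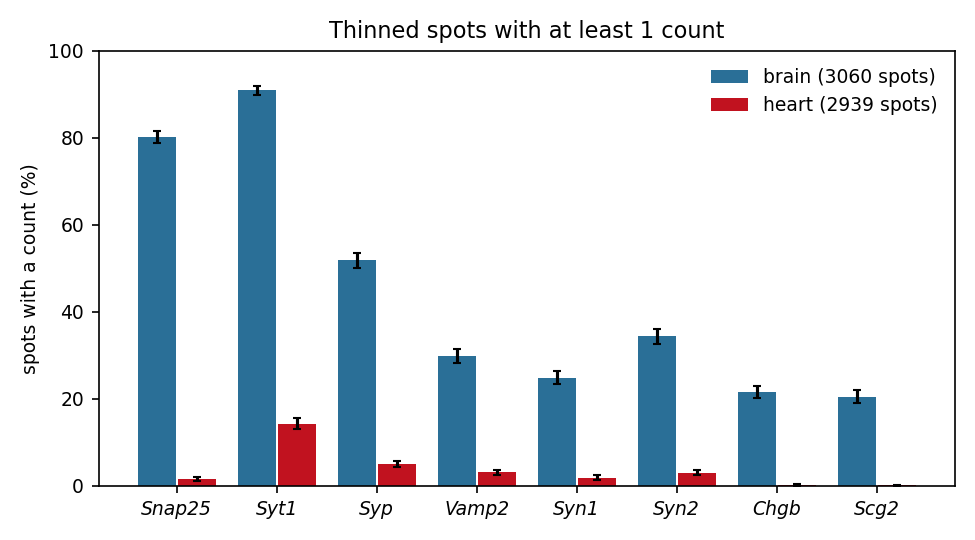
Share of spots with at least 1 count of each gene after thinning to 2800 counts, in 3060 brain and 2939 heart spots; bars show percent of spots and whiskers exact 95% binomial intervals. Detection in brain runs from 20.4% for Scg2 to 90.9% for Syt1, and every heart bar is lower.

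Within the brain section, spots were grouped into 10 regions by expression, with the members and all other listed genes left out of the grouping. A spot is a small area that can hold several cells, and regions are spots of 1 library and not replicates. Region 2 was led by Dlk1, Zim1 and Peg10, and its hypothalamus markers summed to 1124 CPM against 306 over the section. Region 4 (Pdzrn3, Hs3st2, Dpp10) was highest in cortex markers and region 5 (Shox2, Synpo2, Plekhg1) in thalamus markers. Region 9 (Htr1b, Rarb) was highest in striatum markers and regions 8 (Dsp, Maml2, Slc29a4) and 10 (Neurod6, Ctxnd1, Gpr161) in hippocampus markers. Region 3 (Ermn, Cldn11, Tmem88b) was highest in myelin markers, region 6 (Fmod, Thbd, Aebp1) in fibroblast and meninges markers and region 7 (Sostdc1, Tmem72, Chrna3) in choroid plexus markers. Region 1 (Fn1, Ddn, Ahnak) holds shallow spots, with a median of 1234.5 counts, and was highest in astrocyte markers.

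The 8 genes had their lowest levels in the fibroblast-marker and choroid-marker regions and differed in where they peaked. In region 6 all 8 were at least 2-fold lower than in the rest of the section, against 7.76% of features tested there, with a median fold of 0.339 beside 1.03 over all features. In region 7, where 9.45% of features were at least 2-fold lower, 6 of the 8 were, and Vamp2 and Syn1 stood at 0.591-fold and 0.511-fold. Region 3 had a median member fold of 0.588 beside 0.971 over all features. The medians were highest in region 10 (1.27, beside 0.934 over all features) and region 4 (1.26, beside 0.949). In each of these regions 7 of the 8 lay above the rest. The intervals of Vamp2 in region 10 (0.964 to 1.13) and Syp in region 4 (0.985 to 1.07) included no difference. The share of all features above the rest is not given here. The pan-neuronal list did not follow the same order as the members, since it summed to 2630 CPM in region 3 and 1742 in region 10. Markers of excitatory neurons summed to 774 CPM in region 3 and 3036 in region 10, and those of inhibitory neurons to 543 and 113.

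**Figure D4:**
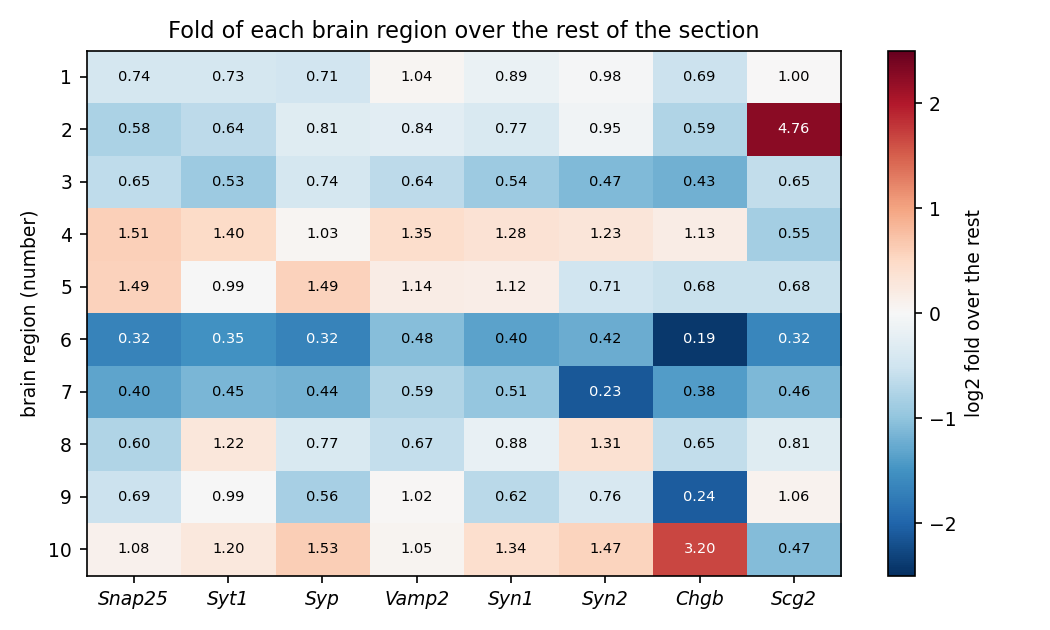
Fold of each brain region over the rest of the section for the 8 genes, printed in each cell and coloured by its log2 value; rows are regions by number. Scg2 in region 2 (4.76) and Chgb in region 10 (3.20) stand out, and the row of region 6 is below 1 throughout.

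Snap25 and Vamp2 peaked in regions 5 and 4. Snap25 had 1047 CPM in region 5, 974 in region 4 and 805 in region 10, all apart from each other by their intervals. It then dropped to 563, 523, 493, 464 and 464 in regions 1, 9, 3, 2 and 8, where no neighbouring values were apart, and ended at 309 in region 7 and 244 in region 6. Vamp2 varied least, from 161.8 CPM in region 4 to 64.9 in region 6, a range of 2.49-fold (2.03 to 3.09). Its values of 148.8, 139.3, 138.9, 136.2 and 114.4 in regions 5, 1, 10, 9 and 2 were not apart from their neighbours in that order.

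Syt1 had 1567 CPM in region 4, 1520 in region 8 and 1478 in region 10, neighbours that were not apart. It stood at 1262 in region 5 and 1255 in region 9 and fell through 937.5, 849, 683 and 582.5 in regions 1, 2, 3 and 7 to 456 in region 6. The ratio of Snap25 to Syt1 counts, which does not move with the scaling, ran from 0.829 (0.800 to 0.860) in region 5 to 0.305 (0.287 to 0.324) in region 8. Region 8 also had the lowest ribosomal share, 23.8% of its counts.

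Syp was shared between regions 10 and 5, with 428 and 418 CPM that were not apart. Region 4 followed with 305 and region 2 with 251, and the lowest values were 134.6 in region 7 and 97.4 in region 6. Outside ribosomal, mitochondrial and small RNA region 5 was above region 10 (707 and 692 CPM on that scale). The ratio of Vamp2 to Syp counts ran from 0.325 (0.298 to 0.354) in region 10 to 0.793 (0.639 to 0.983) in region 9.

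The synapsins peaked together in region 10 and separated in region 5. Syn1 had 147.4 CPM in region 10, 135 in region 4 and 127 in region 5, neighbours that were not apart, and 46.7 in region 6. Syn2 had 269 CPM in region 10, 248 in region 8 and 222 in region 4, but 143.6 in region 5, 0.708-fold of the rest (0.656 to 0.763), where Syn1 was 1.12-fold (1.03 to 1.22). Counts of Syn1 per count of Syn2 were 0.885 (0.797 to 0.984) in region 5 and 0.413 (0.361 to 0.473) in region 8. Region 7 had 86 counts of Syn1 and 66 of Syn2, a ratio of 1.30 (0.935 to 1.82).

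The granin genes had the most uneven levels, and each peaked where the other lay below the rest of the section. Chgb had 310.1 CPM (295 to 326) in region 10, 3.20-fold over the rest (3.01 to 3.4), and this region, with 13.6% of the section's counts, held 33.4% of the Chgb counts. It was the 1 member at least 2-fold higher there, where 3.81% of features were. Region 4 followed with 136 CPM and then regions 5, 1, 8 and 2 with 89.1, 87.9, 84.5 and 78.7. The remaining regions 3, 7, 9 and 6 had 55.7, 48.8, 30.4 and 24.3 CPM.

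Scg2 had 286 CPM (272 to 301) in region 2, 4.76-fold over the rest (4.45 to 5.10), and 43.2% of its counts fell in this region, which held 13.8% of all counts. It was the 1 member at least 2-fold higher there, where 3.04% of features were. Region 9 came next with 96.3 CPM, then region 1 with 91.6 and region 8 with 75.1. Regions 5, 3 and 4 had 65.1, 60.4 and 59.3, and regions 10, 7 and 6 had 46.5, 42.6 and 30.4 CPM. Its level in region 10, where Chgb peaked, was 0.473-fold of the rest (0.413 to 0.541), and Chgb in region 2 was 0.591-fold (0.532 to 0.654).

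Counts of Chgb per count of Scg2 ran from 0.275 (0.246 to 0.307) in region 2 and 0.315 (0.209 to 0.465) in region 9 to 2.30 (2.11 to 2.51) in region 4 and 6.67 (5.81 to 7.69) in region 10. The ends differ by 24.3-fold. Spots of region 10 were deep, with a median of 34193.5 counts against 5905 in region 2. Without the deepest 10% of kept spots, those above 16532 counts, the ratio was 6.83 in region 10 (82 counts of Chgb and 12 of Scg2) and 0.256 in region 2 (303 and 1182). This kept only 30 of the 132 spots of region 10, but 616 of the 658 of region 2. That leave-out was chosen after the values were seen. Both granins per count of the 6 vesicle genes came to 0.187 in region 2, 0.109 in region 10 and 0.0490 in region 5, the lowest.

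**Figure D5:**
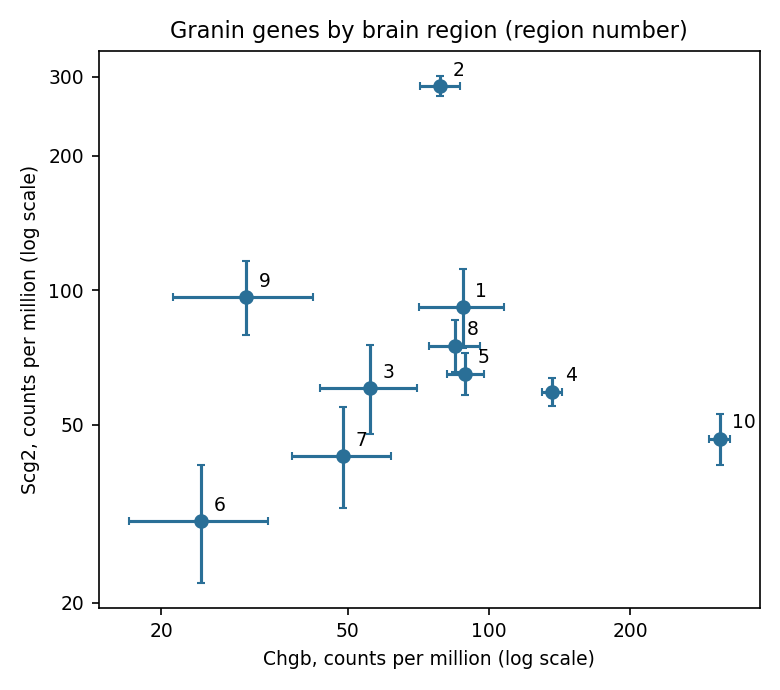
Level of Chgb against Scg2 in the 10 brain regions, in CPM on log axes, with 95% counting intervals; numbers are regions of 1 library. Region 2 lies highest on the Scg2 axis at 286 CPM and region 10 farthest along the Chgb axis at 310.1 CPM.

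Across the 10 regions, which share 1 library, pairs of the 6 vesicle genes had Pearson correlations of log2(CPM + 1) between 0.64 and 0.92. Chgb had 0.61 to 0.89 with them, Scg2 0.16 to 0.40, and the granins 0.08 with each other. These describe 10 points and carry no test. Across 3060 thinned spots the 28 pairs had Spearman correlations from -0.05 to 0.21 (median 0.04), highest for Snap25 with Syt1, at counts too sparse for a weak value to be read.

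The granins were also detected most often in the regions of their highest levels. Scg2 had a count in 41.4% of thinned spots in region 2 (37.4 to 45.5) and 12.2% in region 10 (7.15 to 19.1). Chgb had one in 17.5% (14.6 to 20.9) and 44.3% (35.6 to 53.2) of the same spots, and in 6.92% in region 9. Syp, whose levels in regions 10 and 5 were not apart, had a count in 70.2% of spots in region 5 (66.4 to 73.7). In region 10 its share was 64.1% (55.3 to 72.3), an interval that overlaps that of region 5. Syt1 was counted in 99.2% of spots in region 10 and 68.8% in region 6. No member was counted in 18 of 205 thinned spots of region 6, 13 of 208 in region 3, 8 of 49 in region 7 and 3 of 587 in region 2, and the other 6 regions had no such spot.

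Among 2649 features with at least 50 CPM in brain, those with the regional pattern most like each member were found by Pearson correlation over the 10 regions. Chgb was closest to Atp6v1g2, a subunit of the vesicular proton pump (0.985), and then to Dnm1, the dynamin of vesicle retrieval (0.958), and Dop1b (0.935). Syn1 was also closest to Dnm1 (0.957), with Frrs1l (0.952). Syt1 was closest to the sodium channel gene Scn8a (0.964), with Grin1, an NMDA receptor subunit (0.955). For Syp these were Atp1b1, a sodium pump subunit (0.974), Rtn3 (0.970) and Slc4a8 (0.958). For Snap25 they were Sult4a1 (0.953), Smim13 and Trim37 (both 0.945), and for Vamp2 Pclo, the active zone protein piccolo (0.924), Clip3 (0.914) and Sult4a1 (0.911). Syn2 had Ncoa7 (0.954), Adgrb3 (0.95) and Cacna2d1 (0.939). The closest features to Scg2 were less alike, Mdga2 (0.870), Tro (0.864) and Pak3 (0.863).

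Other genes of the pathway were taken from lists of 70 genes, of which 68 were higher in brain. Of the 62 with 20 CPM or more in a section 47 passed the size rule in brain, beside 17.2% of all features tested, and none passed it in heart. The median log2 ratio over the 70 was 3.0. On the scale outside ribosomal, mitochondrial and small RNA 45 passed, beside 8.42% of features. In heart 14 of 23 vesicle genes, 14 of 21 fusion genes, 5 of 11 recycling genes and 9 of 15 granule genes lay under 2 times the receptor density. Many of the heart values below are thus near that background, and the share over all features is not given here. Of 23 further vesicle genes 20 were tested and 14 passed (median 2.88), and the most abundant were the small GTPase Rab3c with 285 CPM in brain and 27.6 in heart, Sv2b with 214 and 18.6 and Syt11 with 169 and 7.33. Of 21 fusion genes 19 were tested and 15 passed (median 3.4), led by the active zone genes Erc2 (919 and 89.3 CPM), Rims1 (626 and 48.6) and Rims2 (452 and 42.7). Among 11 vesicle recycling genes, all tested, 8 passed (median 2.90). Their 3 most abundant were Sgip1 at 9.26-fold, Dnm3 at 2.64-fold, short of the rule, and the endophilin gene Sh3gl2 at 7.45-fold. Of 15 granule genes 12 were tested and 10 passed (median 2.87), led by Cadps, which primes granules for release (510.5 and 80.5 CPM), Ptprn2 (455 and 81.5) and the peptide-trimming carboxypeptidase Cpe (392 and 49.1). The 2 genes higher in heart, named after their values were seen, were Picalm, a clathrin adaptor, at 0.744-fold and Pam, which amidates peptides, at 0.567-fold.

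Paralogs of wider expression had ratios on both sides of 1. Of 13 in the files 11 had counts and 5 were higher in brain. Their median log2 ratio was -0.04, beside 0.71 over all features tested. Only 5 of the 11 reached 20 CPM in a section and could be tested. Of those Snap47 alone passed the rule at 4.88-fold (4.40 to 5.43), beside 17.2% of all features tested. None passed outside ribosomal, mitochondrial and small RNA, beside 8.42% of features. Snap23, the counterpart of Snap25 in many other cells, was at 0.636-fold (16.6 CPM in brain, 26.0 in heart), and Snap29 at 1.11-fold (0.943 to 1.30). Vamp4 was at 3.06-fold, Vamp8 at 0.295-fold (1.51 and 5.11 CPM) and the synaptophysin-like gene Sypl at 0.744-fold (18.3 and 24.6 CPM). Vamp3 and Syngr2 had no count in either section. Whether these features could be counted at all was not tested, so this does not show that their RNA was absent.

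Related genes of the pathway also peaked in different brain regions, examples being named after their values were seen. Cplx1, a complexin that clamps SNARE complexes, was highest in region 5 (146 CPM, 2.70-fold over the rest) and Cplx2 in region 8 (314 CPM, 2.64-fold). Vamp1, the close relative of Vamp2, was highest in region 5 (58.3 CPM, 2.89-fold). The SV2 genes, vesicle transporter-like proteins, split over regions 5 (Sv2a, 1.58-fold), 4 (Sv2b, 2.31-fold) and 9 (Sv2c, 2.94-fold). Synpr, synaptoporin, a relative of Syp, reached 6.84-fold in region 8 (6.38 to 7.32), where Syp was 0.765-fold. Of 12 granule genes with at least 20 CPM in brain 5 were highest in region 2 (Chga, Scg3, Vgf, Pcsk1 and Ptprn) and 3 in region 10 (Scg5, Cpe and Cadps), where 7.36% and 9.07% of 5567 features were highest.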

How the data were processed

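The deposited values are counts per feature and spot barcode, made by the authors with STARsolo against mm39 per the submitters' processing notes. The version, the merging of molecular tags, and the use of introns and strand are not given in the sources used here. Counts of spots with at least 500 counts and 200 features were summed per section and scaled to CPM. Ratios have exact conditional binomial, levels exact Poisson and shares exact binomial (Clopper-Pearson) 95% intervals. Log2 ratios had 0.5 counts added to each sum. A feature passed the size rule at 4-fold and 20 CPM in the higher section. No test was run, since each tissue has 1 library.

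Brain regions were found with Scanpy 1.11.5 (2000 variable genes, 20 components, 15 neighbours, Leiden resolution 0.6, a fixed seed), leaving out all listed genes. They are named by the 3 unlisted protein-coding features of largest fold at 50 CPM or more. Regional correlations used log2(CPM + 1). Thinning was to 2800 counts a spot. GENCODE M21 supplied spans, exons and overlaps by gene ID, and RefSeq the promoters. Intervals used SciPy 1.17.1. The size rule, the ratio interval and the thinning were tested on simulated data, and the other steps were not.

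Members and lists were chosen with earlier results of these data known. The rule named all 8 members, the 3 most abundant of each pathway list, members against their list by at least 2-fold, paralogs, Timp1 and Timp4, and the 3 features most alike per member. Some items that the rule or the lists hold are not reported here.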

Additional observations from a re-analysis of the deposited data

How the results depend on the processing

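All 8 members were at least 4-fold higher in brain with another scaling, all barcodes, a stricter spot threshold and equal weight per spot. All 8 also passed at 8-fold. The count was 8 too at 2-fold, with no floor on CPM and with background taken off. A fold of 2 or no floor could not lower the count. Taking off background could only raise the ratios, since more was taken off per kb in heart than in brain. The 40 ratios of single members recomputed under these scalings and spot choices, background taken off included, stayed above 0 on the log2 scale. They ran from 3.16 to 11.45, the latter for Snap25 with only 11.9 heart counts left after background was taken off. The median log2 ratio of 4.35 was 3.74 over counts outside ribosomal, mitochondrial and small RNA and 4.11 with each spot weighted equally, where Chgb moved most, from 7.11 to 5.71. It was 8.65 after background per kb was taken off, where Syn2, Chgb and Scg2 had no heart counts left and were set at a floor of 3 counts. The highest granule to vesicle ratio of 0.187, in region 2, was 0.172 at a Leiden resolution of 0.3 and 0.245 without Snap25. The median share of thinned brain spots with a count over the 8 members, 32.0%, was 50.9% without thinning and 20.6% when thinned to 1000 counts outside ribosomal RNA. The highest region matched for 8 of 8 members at resolution 0.3, for 7 at resolution 1.0 and for 7 outside ribosomal, mitochondrial and small RNA, the exceptions being Syt1 and Syp. The range of Chgb per Scg2 over regions, 24.3-fold, was 22.3, 24.5 and 26.7 at resolutions 0.3 and 1.0 and without the deepest 10% of spots, all 3 chosen after the values were seen. Where no cause is shown by the alternative's construction, the cause was not tested. No paired analysis was possible because each tissue has 1 library. With 1 library per tissue, precision is limited by the number of sections and not by depth for most members, and by 40 and 21 counts for Chgb and Scg2 in heart.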

Other observations

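Barcodes below the spot threshold held 54 member counts among 154831 counts in the heart section, 349 CPM (262 to 455), against 110.2 in heart spots. Their ratio of Snap25 to Syt1 counts was 0.5 (0.219 to 1.08), from 11 and 22 counts, beside 0.110 (0.0965 to 0.124) in heart spots and 0.594 (0.585 to 0.603) in brain spots. In the brain section, barcodes below the threshold held 289 member counts, 1841 CPM against 2981 in spots, with a ratio of 0.533 (0.395 to 0.713), and cardiomyocyte markers there came to 63.7 CPM (30.6 to 117, 10 counts) against 30.5 in spots. Heart spots were also ranked in 4 groups by the member counts of the brain spot with the same barcode. Their own member levels ran 122.6, 111.2, 105.7 and 100.9 CPM from the lowest to the highest group.

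Member levels in brain moved with spot depth in different ways. From the shallowest to the deepest of 4 groups of brain spots Chgb had 68.5, 71.3, 92.6 and 152 CPM and Syt1 791, 973, 1217 and 1375. Scg2 had 79.4, 99.7, 116 and 81.9 CPM, and Vamp2 127, 121, 157 and 128. Regions differ in depth, and the part of depth in these values was not tested.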
